A study of Sus scrofa with 12 samples.

Results

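The comparison described here set Activin A-treated pig PC-iPS cells that carry a NANOG tdTomato knock-in against untreated knock-in lines. It used 6 of the 12 libraries of the series, 3 per group. Libraries were paired by the number in their titles, 1 to 3, taken as the number of the knock-in line. PC-iPS cells are induced pluripotent stem cells made from pig pericytes, the contractile cells that wrap small blood vessels. All 6 libraries came from lines given a P2A-tdTomato cassette at NANOG by CRISPR/Cas9, so the untreated controls carry the reporter as well. The untreated group is labeled as Nanog knock-in reporter PC-iPS, and the treated group is labeled Activin A. The 3 lines were sorted by tdTomato fluorescence and are not clones: per the study, cells of one line can carry the insertion on 1 or both alleles, at different NANOG loci, or not at all. Feeder cells were removed by a short plating step before RNA was extracted. Library 1, 2 and 3 of SB431542, an inhibitor of the activin, NODAL and TGF-β type I receptors, were deposited with the Activin A libraries and their values are given alongside, without a test.

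Several things differ between the groups besides the label. The 2 expression tables were deposited separately, with the untreated lines in a table shared with WT PC-iPS and the Activin A libraries in a table shared with SB431542. The labels give the LCDMV medium (LIF, CHIR99021, dimethindene, minocycline and vitamin C) for every sample, whereas the study's methods give T1 medium, which is LCDMV without LIF, for the cytokine treatments. For the sequenced cultures, the dose of Activin A, the length of treatment and the feeder state are not given in the sources used here. The study gives doses and a number of passages for its feeder-free cytokine screen, but does not tie them to these libraries. Activin A, the absence of LIF and the table therefore cannot be told apart in any difference below.

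Activin A is a dimeric ligand of the TGF-β superfamily. It binds a type II receptor, which activates the type I receptor ALK4 (ACVR1B), and this kinase phosphorylates SMAD2 and SMAD3. These join SMAD4 in the nucleus and act on targets that include the pathway's own brakes, LEFTY, SMAD7 and PMEPA1. In human pluripotent cells the pathway sustains NANOG transcription, while in embryos higher signaling specifies mesendoderm. BMP ligands use SMAD1, SMAD5 and SMAD9 instead, and ID genes are their classical targets.

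The guide RNA that placed the reporter is shown because NANOG is both the edited gene and one of the genes that rose with Activin A. Per the study it cuts both pig NANOG loci. In the RefSeq annotation of Sscrofa11.1 these are chr1:169064134-169065292 and chr5:62931642-62939086, and both are annotated as protein-coding. The position of the guide within them was not analysed here.
NANOG sgRNA: atcttcaggctgtatgttca

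FPKM (a fragment count corrected for gene length and sequencing depth) summed to similar totals in all 6 libraries, between 370100 and 381600. Between 15537 and 15755 genes were above 0 in the untreated libraries and between 15717 and 15791 with Activin A. FPKM does not carry read numbers, so depth is unknown. Relative depth, estimated from the step between low values with untreated library 1 set to 1, was 0.732 to 1 in untreated libraries and 0.865 to 0.979 with Activin A. The mitochondrial genome accounted for 9.71% to 11.5% of untreated FPKM and for 10.2% to 11.3% with Activin A. Within a group, each untreated library deviated from its mean in the same way as the Activin A library of its own line.

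In 13945 tested genes, 22 rose (0.158%) and 5 fell (0.0359%) with Activin A by at least 1 on the log2(FPKM + 1) scale at an adjusted p of at most 0.05, 27 in all (0.194%). With the adjusted p alone, 47 rose (0.337%) and 21 fell (0.151%), 68 in all (0.488%). These are the shares over all tested genes beside which the list counts below stand. Differences lay evenly about 0, with 49.6% of the genes tested above it. All 27 genes past both thresholds moved one way in each of the 3 lines. Over all tested genes, 19.3% were higher and 18.8% lower in all 3 lines. For 24 of the 27 genes the Activin A and untreated values did not overlap. Such separation of the groups was found for 4.45% of all tested genes in the upward direction and 5.06% in the downward direction. The 3 exceptions were HES5, DBH and ZNF503, in which the range of the treated lines reached into that of the untreated lines. The plot of differences by line shows HES1 at the top and C11orf54 at the bottom.

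These counts rested on the pairing, on the FPKM filter and on which lines were in the fit. Without the line as a block the test called 0 genes higher and 0 lower, and 601 genes had an unadjusted p of at most 0.05. It called 0 and 0 without line 1 (1435 genes at an unadjusted p of at most 0.05), 9 and 1 without line 2, and 18 and 4 without line 3. It also called 0 and 0 when genes under the FPKM filter were added to the fit (2044 at an unadjusted p of at most 0.05). The sign of all 27 was kept under each of the 14 alternatives, and their log2 fold change stayed at 1 or more in size for at least 24 of them. Much of this was fixed in advance. A change of filter, trend or block, or a fit of 9 libraries, leaves the log2 fold change of a gene as it was. Leaving out a line could not turn a sign, since all 27 moved one way in each line.

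**Figure D1:**
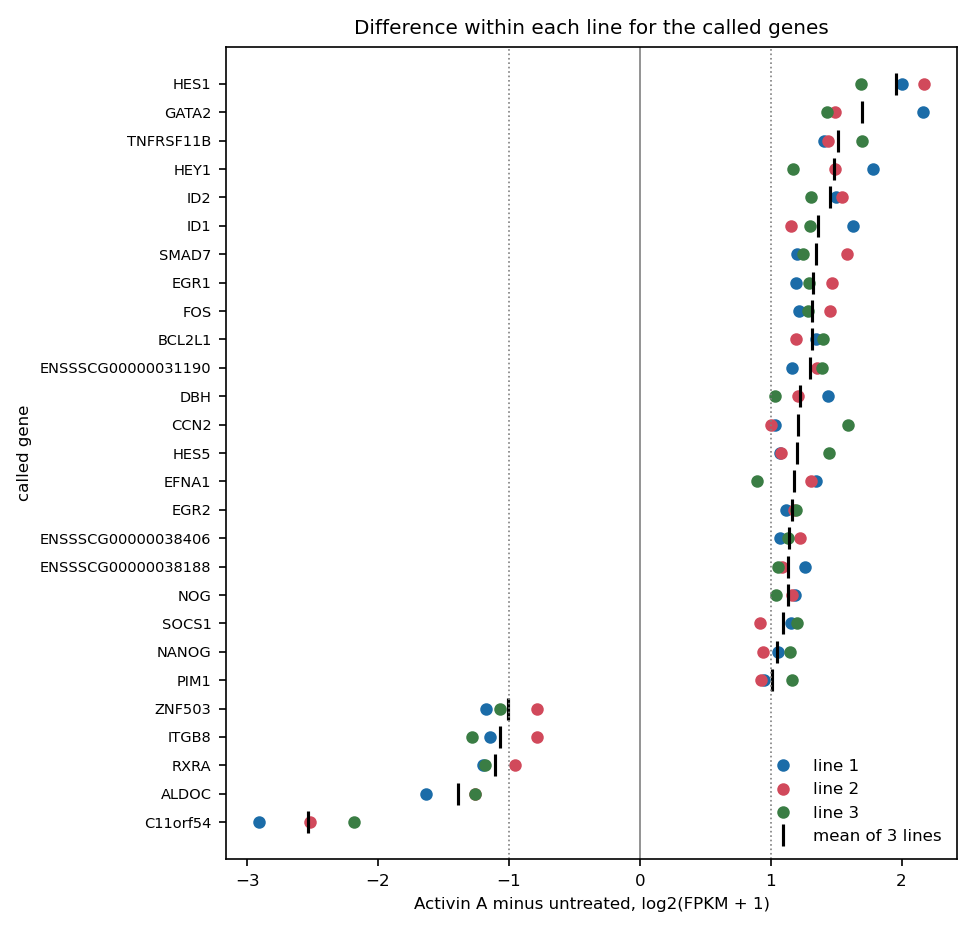
Difference between Activin A and untreated cells, in log2(FPKM + 1), within each line for the 27 genes past both thresholds; colored points are lines 1 to 3, black bars their mean, and dotted lines mark a difference of 1. All 3 points of each gene lie on one side of 0, and the mean reaches 1.96 for HES1 and -2.54 for C11orf54.

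NANOG, the homeobox factor whose locus carries the reporter, was higher with Activin A in each line. Its only identifier in the tables, ENSSSCG00000040403, read 52, 101 and 70.4 FPKM in untreated lines 1, 2 and 3 and 109, 195 and 157 FPKM with Activin A. The lowest Activin A value lay above the highest untreated value, and line 2 was highest in both groups. The log2 fold change was 1.05 ± 0.053 (SE, n = 3 lines), with an adjusted p of 0.0101, and it stayed between 1.00 and 1.10 when any single line was left out. SB431542 libraries read 11.8, 27.2 and 11.8 FPKM, below every untreated value. The tables do not pair this identifier with either of the NANOG loci, and reads shared between them could have been split or lost.

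The inhibitory SMAD, SMAD7 (chr1:98512800-98543924), which blocks the activated receptor, rose from 2.6, 2.03 and 2.24 FPKM to 7.28, 8.07 and 6.68 FPKM. The 3 treated values lay well above the 3 untreated ones (log2 fold change 1.34 ± 0.10, adjusted p = 0.0216). SB431542 gave 1.75, 1.11 and 1.37 FPKM. LEFTY2 (chr10:13849052-13853438), a secreted antagonist of NODAL, was scarce. It read 0.204, 0.0663 and 0.167 FPKM untreated, 1.37, 0.783 and 1.2 FPKM with Activin A, and was listed at 0 in all 3 SB431542 libraries. LEFTY2 passed the adjusted p but not the size threshold (log2 fold change 0.88 ± 0.077, adjusted p = 0.0306), on a scale that understates changes at such low levels. PMEPA1, a membrane protein that sequesters SMAD2 and SMAD3, rose from 14.6, 9.99 and 12.4 FPKM to 25, 15.9 and 17.9 FPKM (log2 fold change 0.62 ± 0.066, adjusted p = 0.0492), and it was chosen after its values were seen. CCN2 (connective tissue growth factor), a secreted matricellular protein and a target of both SMAD3 and YAP, rose from 56.6, 94 and 67.8 FPKM to 117, 189.5 and 207 FPKM and by most in line 3 (log2 fold change 1.21 ± 0.13, adjusted p = 0.0486).

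Of 20 tested genes in a list of known SMAD2/3 targets, 5 rose and 0 fell at the adjusted p, but 11 lay above 0 and 9 below, and the list median was 0.085 against about 0 over all genes. That median was 0.16 on TPM and ran from 0.058 without line 2 to 0.13 without line 3. Other classical targets did not pass. SKIL, a SMAD corepressor, read 19.2, 22.5 and 19.1 FPKM untreated and 33.9, 27.4 and 14.2 FPKM with Activin A, so it was higher in lines 1 and 2 and lower in line 3 (adjusted p = 0.702). The repressor TGIF1 read 58.1, 82.5 and 73.7 FPKM against 74.8, 94.7 and 83.7 FPKM (adjusted p = 0.196), while its paralog TGIF2 read 32.9, 27 and 31.2 FPKM against 27, 20.2 and 22.9 FPKM (adjusted p = 0.0918). NODAL, GDF3, CER1 and TDGF1, targets and partners of the pathway, stayed below the FPKM filter in both groups.

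**Figure D2:**
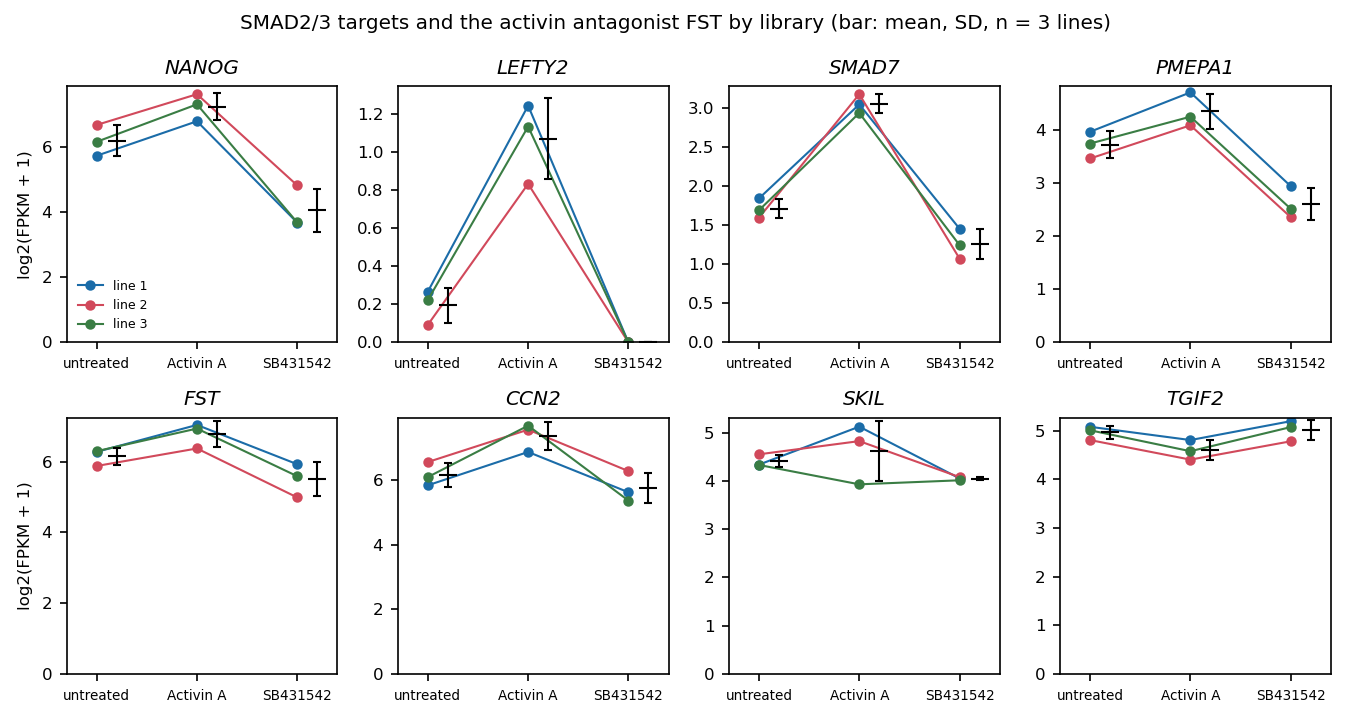
Expression of SMAD2/3 targets and of FST in log2(FPKM + 1) for lines 1 to 3 (colored points joined by line) in untreated, Activin A and SB431542 libraries, with the group mean and SD (n = 3 lines) as black bars. NANOG, LEFTY2, SMAD7, PMEPA1, FST and CCN2 are higher with Activin A in each line, whereas SKIL is lower in line 3 and TGIF2 in each line.

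Among ligands, antagonists, receptors and SMAD proteins of the activin branch, 1 of 26 tested genes rose and 0 fell, with a median of -0.015 that lay between -0.027 and 0.040 when a line was left out. The one was FST, follistatin, which binds and neutralizes activin. It rose from 76.5, 57.8 and 77.5 FPKM to 130.3, 81.8 and 121 FPKM, and SB431542 libraries read 59.8, 30.7 and 47.1 FPKM (log2 fold change 0.63 ± 0.061, adjusted p = 0.038). The related antagonist FSTL3 was higher in each line, at 1.62, 1.72 and 2.08 FPKM against 2.69, 2.88 and 2.96 FPKM, without passing the adjusted p (0.136). The highest expressed members of this list that were not called, FSTL1 and THBS1, a glycoprotein that activates latent TGF-β, had adjusted p of 0.376 and 0.196. The ligand TGFB2 read 4.07, 2.5 and 2.38 FPKM untreated and 1.91, 1.06 and 1.43 FPKM with Activin A, the lowest log2 fold change of the list (log2 fold change -0.68 ± 0.097, adjusted p = 0.0859). The activin type II receptor ACVR2A read 3.6, 3.85 and 4.55 against 3.51, 2.52 and 2.3 FPKM (adjusted p = 0.334), and SMAD3 read 28.2, 25.7 and 26.7 against 24.2, 20.4 and 24.7 FPKM (adjusted p = 0.257). FSTL3, TGFB2, ACVR2A and SMAD3 were named after their values were seen.

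ID1, ID2 and ID3, inhibitors of basic helix-loop-helix factors, rose together with the BMP antagonist noggin. ID1 (chr17:35316518-35317742) went from 5.13, 10.5 and 4.86 FPKM to 18, 24.5 and 13.5 FPKM, with no overlap (log2 fold change 1.36 ± 0.10, adjusted p = 0.0216). ID2 went from 19.5, 28.1 and 19.3 FPKM to 56.9, 84.3 and 49.4 FPKM (log2 fold change 1.45 ± 0.062, adjusted p = 0.0089). ID3, the most abundant of the family here, rose by less, from 209.7, 284 and 214 FPKM to 323, 395 and 293 FPKM (log2 fold change 0.52 ± 0.050, adjusted p = 0.0378), and ID4 missed the adjusted p (0.0839). In SB431542 libraries ID1 read 4.31, 15.3 and 4.34 FPKM and ID3 253, 391 and 278 FPKM, so ID3 lay above the untreated value of the same line in each library and ID1 in library 2 alone. NOG, which encodes noggin, rose from 3.67, 5.68 and 8.43 FPKM to 9.63, 14 and 18.4 FPKM (log2 fold change 1.13 ± 0.067, adjusted p = 0.0142). BAMBI, a decoy receptor, read 14.5, 18.9 and 27.6 against 21.9, 33.5 and 34.7 FPKM (adjusted p = 0.135).

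GATA2 (chr13:71981139-71997626), a zinc finger factor of blood, trophoblast and neural cells, had the second largest rise. It read 5.09, 13.2 and 7.41 FPKM untreated and 26.3, 38.9 and 21.7 FPKM with Activin A, and the shift was widest in line 1 (log2 fold change 1.70 ± 0.16, adjusted p = 0.0321). In the list of BMP ligands, antagonists, SMAD proteins and targets, which holds ID1 to ID4, NOG, GATA2 and HEY1, 6 of 28 tested genes rose, 0 fell, 24 lay above 0 and the median was 0.32. Among all tested genes 0.337% rose, 0.151% fell and 49.6% lay above 0. BMP6 and BMP2, named after their values were seen, had adjusted p of 0.224 and 0.172.

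HES and HEY genes, transcriptional repressors that Notch switches on, included the gene with the largest rise. HES1 (chr13:131135970-131137865) rose from 10.2, 16 and 18.8 FPKM to 43.9, 75.4 and 62.9 FPKM, with every treated value far above every untreated one (log2 fold change 1.96 ± 0.098, adjusted p = 0.0101). HEY1 rose from 1.83, 3.2 and 2.12 FPKM to 8.72, 10.8 and 6.0 FPKM (log2 fold change 1.48 ± 0.13, adjusted p = 0.0307). HES5 rose in each line, from 36.4, 24.2 and 56.9 FPKM to 77.8, 52.4 and 157 FPKM, but treated line 2 lay below untreated line 3 (log2 fold change 1.20 ± 0.086, adjusted p = 0.0214). HES4, named after its values were seen, rose from 34, 32.5 and 37 FPKM to 48.8, 43.9 and 58.1 FPKM (log2 fold change 0.52 ± 0.057, adjusted p = 0.0492). Of 14 tested Notch genes, 4 rose, 0 fell and 12 lay above 0, with a median of 0.26. The shares over all tested genes were 0.337%, 0.151% and 49.6%. The 4 that rose are all target genes. The ligand JAG1 read 54.6, 74 and 75.3 FPKM untreated and 63.9, 46.5 and 126 FPKM with Activin A and moved in opposite directions in lines 2 and 3 (adjusted p = 0.891), and the glycosyltransferase LFNG read 91.8, 96.4 and 77.6 against 85.2, 74.8 and 84.8 FPKM (adjusted p = 0.643). SB431542 libraries read 6.6, 8.94 and 6.2 FPKM for HES1 and 18.2, 8.61 and 30.4 FPKM for HES5.

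Immediate-early genes, which cells switch on within minutes of a stimulus, had the highest median of the 23 lists (0.37). Of 26 tested, 5 rose, 0 fell and 19 lay above 0, beside 0.337%, 0.151% and 49.6% of all tested genes. EGR1 rose from 65.3, 118 and 123 FPKM to 151, 328 and 304 FPKM (log2 fold change 1.32 ± 0.063, adjusted p = 0.0101) and EGR2 from 3.3, 6.61 and 6.5 FPKM to 8.33, 16.2 and 16.1 FPKM (log2 fold change 1.16 ± 0.063, adjusted p = 0.0115). The AP-1 subunit FOS rose from 47.1, 69.3 and 48.2 FPKM to 111, 191 and 119 FPKM (log2 fold change 1.32 ± 0.058, adjusted p = 0.0089), its partner JUN from 109, 137 and 118 FPKM to 171, 218 and 206 FPKM (log2 fold change 0.71 ± 0.048, adjusted p = 0.0181), and FOSB from 13.6, 20.3 and 14.9 FPKM to 25.5, 34 and 29.4 FPKM (log2 fold change 0.84 ± 0.061, adjusted p = 0.0215). DUSP1, the phosphatase that shuts off MAP kinases, had a larger mean difference than FOS but varied between lines. It read 5.17, 7.26 and 5.64 FPKM untreated and 20.6, 11.4 and 21.3 FPKM with Activin A (adjusted p = 0.155), and it was also above the untreated values in SB431542 libraries, at 13.4, 8.06 and 15.7 FPKM. SB431542 values of FOS were 37.9, 51 and 38 FPKM and those of EGR1 53.4, 69.1 and 117 FPKM. KLF10, a TGF-β inducible zinc finger gene, read 43.1, 61.9 and 62.9 against 89, 102 and 76.9 FPKM (adjusted p = 0.185). FOSB and DUSP1 were named after their values were seen.

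Genes of LIF and STAT3 signaling are described because the treated cultures were without LIF per the study's methods. Of 24 tested receptors, kinases and targets, 2 rose and 0 fell, beside 0.337% and 0.151% of all tested genes, and the median was 0.053. SOCS1, a feedback inhibitor of JAK kinases, rose from 2.27, 4.71 and 5.96 FPKM to 6.28, 9.77 and 15 FPKM (log2 fold change 1.09 ± 0.086, adjusted p = 0.0221). The kinase PIM1 rose from 49.4, 88.7 and 49.2 FPKM to 96.2, 169 and 111 FPKM (log2 fold change 1.01 ± 0.061, adjusted p = 0.0142). SOCS3, a sensitive target of STAT3 that was named after its values were seen, read 4.19, 5.09 and 4.75 FPKM untreated and 6.68, 7.48 and 6.44 FPKM with Activin A (adjusted p = 0.119). MYC read 193, 218 and 251 against 233, 252 and 312 FPKM (adjusted p = 0.112), and KLF4 read 68.9, 77.6 and 91.4 against 71.9, 72.7 and 96.9 FPKM (adjusted p = 0.908).

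Several other genes past both thresholds belong to none of these groups. BCL2L1 (chr17:35366139-35415798), whose product BCL-XL protects cells from apoptosis, rose from 20.8, 28.8 and 21.6 FPKM to 54.6, 67.2 and 58.6 FPKM (log2 fold change 1.32 ± 0.057, adjusted p = 0.0089). It is annotated close to ID1 on chromosome 17. TNFRSF11B, the decoy receptor osteoprotegerin, rose from 0.792, 0.352 and 1.13 FPKM to 3.76, 2.67 and 5.9 FPKM (log2 fold change 1.52 ± 0.092, adjusted p = 0.0142), and SB431542 libraries read 0.186, 0.126 and 0.283 FPKM. EFNA1, a membrane-bound ligand of Eph receptors, rose from 5.07, 9.84 and 7.55 FPKM to 14.4, 25.8 and 14.9 FPKM (log2 fold change 1.18 ± 0.11, adjusted p = 0.0308). DBH, the enzyme that makes noradrenaline from dopamine, was named after its values were seen. It rose in each line, from 8.07, 11.2 and 4.18 FPKM to 23.6, 27.2 and 9.6 FPKM, and SB431542 libraries read 2.0, 2.08 and 2.48 FPKM (log2 fold change 1.23 ± 0.093, adjusted p = 0.0216). The other 3 that rose carry no symbol in the tables, ENSSSCG00000031190, ENSSSCG00000038406 and ENSSSCG00000038188, and had log2 fold changes between 1.13 and 1.3.

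Targets and components of the Hippo and YAP pathway were split. Of 19 tested, 4 rose and 0 fell, yet 10 lay above 0 and 9 below. Besides CCN2, AMOTL2, a scaffold that holds YAP at junctions, rose from 42, 62.2 and 41.7 FPKM to 66, 105 and 71.6 FPKM (log2 fold change 0.72 ± 0.046, adjusted p = 0.0162) and the kinase NUAK2 from 47.8, 57.8 and 42.9 FPKM to 65.7, 77 and 55 FPKM (log2 fold change 0.40 ± 0.043, adjusted p = 0.0492). The last was the secreted protein FJX1, at 28.4, 25.8 and 70.9 FPKM untreated and 41, 37.5 and 102 FPKM with Activin A (log2 fold change 0.52 ± 0.041, adjusted p = 0.0216). CCN1, the closest relative of CCN2, read 53.6, 68.6 and 45.9 against 87.9, 109.8 and 105 FPKM and missed the adjusted p (0.067). FJX1, the kinase LATS2 and the DNA-binding partner TEAD4 were named after their values were seen. LATS2 and TEAD4 lay lower with Activin A in each line, with log2 fold changes of -0.45 (adjusted p = 0.0782) and -0.48 (adjusted p = 0.0725).

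Fewer genes fell. C11orf54, a gene of little known function, had the largest drop, from 7.4, 5.23 and 3.91 FPKM to 0.121, 0.087 and 0.0797 FPKM (log2 fold change -2.54 ± 0.15, adjusted p = 0.0142). Its SB431542 values were uneven, at 3.83, 0.337 and 6.78 FPKM. ALDOC, the brain aldolase of glycolysis, fell from 6.38, 6.15 and 4.08 FPKM to 1.38, 1.98 and 1.12 FPKM (log2 fold change -1.39 ± 0.11, adjusted p = 0.0216). RXRA, the retinoid X receptor that pairs with retinoic acid and other nuclear receptors, fell from 11.2, 10.2 and 12.1 FPKM to 4.34, 4.77 and 4.76 FPKM with close values within each group (log2 fold change -1.11 ± 0.081, adjusted p = 0.0215). SB431542 libraries of RXRA read 4.15, 10.1 and 11.9 FPKM, with library 1 alone at the Activin A level. ITGB8, the integrin subunit that releases latent TGF-β, fell from 7.37, 8.34 and 10.8 FPKM to 2.78, 4.43 and 3.84 FPKM (log2 fold change -1.07 ± 0.12, adjusted p = 0.0492). ZNF503, a zinc finger repressor named after its values were seen, fell in each line, from 21.1, 14.9 and 34.6 FPKM to 8.78, 8.21 and 16 FPKM (log2 fold change -1.01 ± 0.089, adjusted p = 0.0306).

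Cytoskeletal genes lay lower almost throughout. In a list of contractile and actin genes, 2 of 23 tested fell and 0 rose, beside 0.151% and 0.337% of all tested genes. In this list 22 lay below 0, and the median was -0.18. VCL, which encodes vinculin of focal adhesions, fell from 67.9, 73.2 and 53 FPKM to 39, 36.9 and 26.1 FPKM, and SB431542 libraries read 96, 99.2 and 84.7 FPKM (log2 fold change -0.92 ± 0.058, adjusted p = 0.0154). TPM1, tropomyosin, fell from 86.3, 85.8 and 62.1 FPKM to 65.2, 60.3 and 43.2 FPKM (log2 fold change -0.47 ± 0.045, adjusted p = 0.0356). The focal adhesion protein ZYX read 139, 144 and 162 against 116, 120.2 and 137 FPKM (adjusted p = 0.0908) and smooth muscle actin, ACTA2, read 17.5, 12.2 and 11.4 against 9.28, 7.52 and 8.17 FPKM (adjusted p = 0.0908). The most abundant members, ACTB and ACTG1, had log2 fold changes near 0 with adjusted p of 0.707 and 0.434. VCL, TPM1 and ZYX were named after their values were seen.

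Sterol genes, which SREBP2 controls, lay lower as well. Of 18 tested, 2 fell and 0 rose, beside 0.151% and 0.337% of all tested genes, and 14 lay below 0, with a median of -0.17. INSIG1, the sterol sensor of the endoplasmic reticulum, fell from 61.5, 63 and 50.7 FPKM to 31.5, 27.2 and 28.8 FPKM (log2 fold change -0.97 ± 0.082, adjusted p = 0.0268). The synthesis enzyme HMGCS1 was lower in each line, at 104, 113 and 88.4 against 79, 53.9 and 47.2 FPKM (adjusted p = 0.129). MSMO1, another enzyme of the route, lay higher, at 37.6, 35.3 and 32.5 against 51.4, 46 and 47.7 FPKM (adjusted p = 0.0542). These genes were named after their values were seen.

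The stress response list covers heat shock, unfolded protein and amino acid response genes. Of 17 tested, 1 fell and 0 rose, beside 0.151% and 0.337% of all tested genes, and 16 lay below 0, with a median of -0.21. The one was CHAC1, a glutathione-degrading enzyme induced by ATF4, which fell from 9.38, 12.8 and 7.72 FPKM to 4.96, 6.65 and 3.39 FPKM and read 17.3, 22.1 and 11.6 FPKM with SB431542 (log2 fold change -0.88 ± 0.074, adjusted p = 0.0268). ATF4 itself read 289, 307 and 228 against 252, 273 and 206 FPKM (adjusted p = 0.219), and the serine synthesis enzyme PHGDH, one of its targets, 123, 104 and 90.6 against 89.8, 82.7 and 75.7 FPKM (adjusted p = 0.0927). The chaperones HSPA8 and HSPA5 had adjusted p of 0.766 and 0.912. In the glycolysis and hypoxia list, ALDOC and TXNIP fell, 2 of 27 tested identifiers, and 0 rose. TXNIP, a glucose-responsive inhibitor of thioredoxin, fell from 1.49, 1.71 and 2.14 FPKM to 0.626, 0.73 and 0.882 FPKM (log2 fold change -0.67 ± 0.073, adjusted p = 0.0492). The abundant enzymes GAPDH and PKM had adjusted p of 0.873 and 0.572. CHAC1, PHGDH and TXNIP were named after their values were seen.

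**Figure D3:**
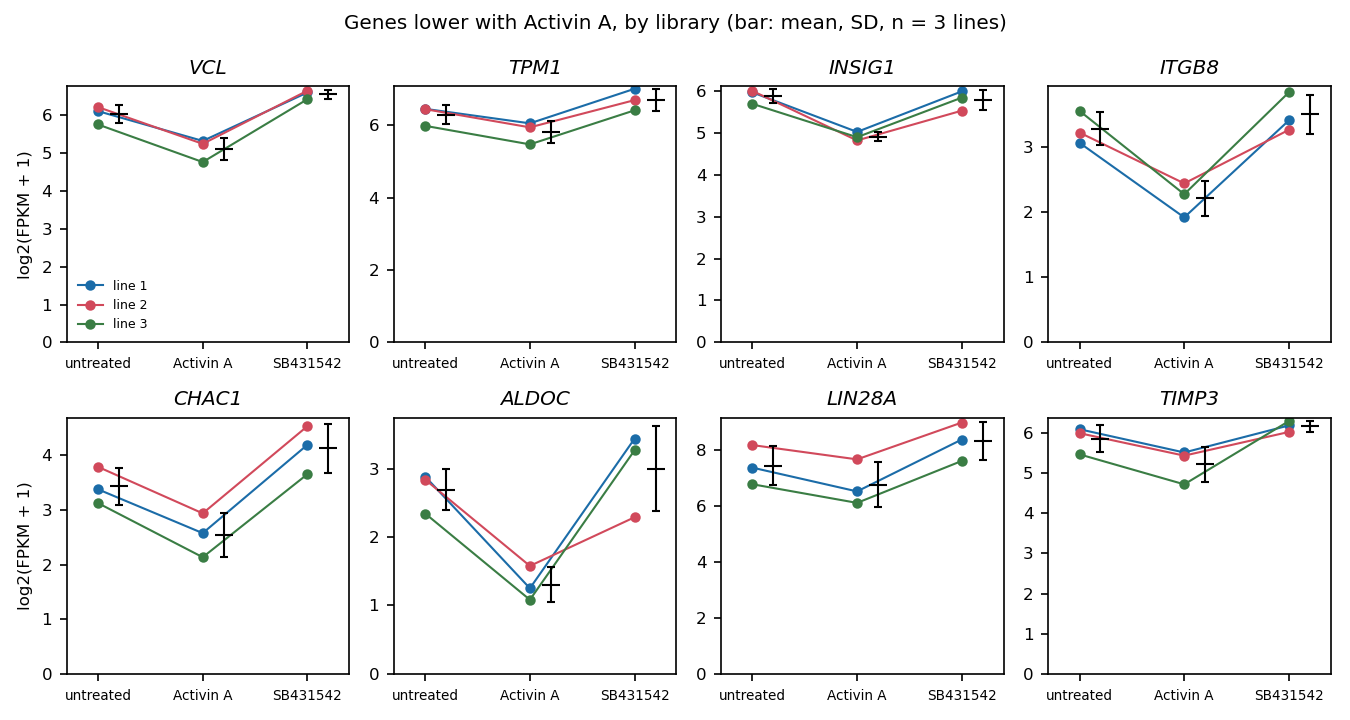
Expression of 8 genes that fell with Activin A at the adjusted p, in log2(FPKM + 1), for lines 1 to 3 (colored points joined by line) in untreated, Activin A and SB431542 libraries, with the group mean and SD (n = 3 lines) as black bars. Each gene is lowest with Activin A in each of the 3 lines.

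Pluripotency genes did not rise as a group with NANOG. Of 17 tested, 1 rose (NANOG), 1 fell (LIN28A), 7 lay above 0 and 10 below, with a median of -0.098. LIN28A, an RNA-binding protein that blocks let-7 maturation, fell in each line from 163, 285 and 108 FPKM to 90.0, 200.0 and 67.6 FPKM, and SB431542 libraries read 327, 498 and 192 FPKM (log2 fold change -0.67 ± 0.072, adjusted p = 0.0492). SOX2 read 64, 67.4 and 67.7 FPKM untreated and 59.6, 56.9 and 69.9 FPKM with Activin A (adjusted p = 0.545), and SALL4, named after its values were seen, had a log2 fold change of -0.32 ± 0.081 (adjusted p = 0.241). ETV5, an ETS factor downstream of FGF that was also named afterwards, read 17.2, 14.5 and 11.9 against 10.6, 5.97 and 6.05 FPKM (adjusted p = 0.0604). As a check of the labeled cell type, SOX2, SALL4, LIN28A and NANOG were present in all 6 libraries. Listed pluripotency genes below the filter were TDGF1, KLF17, TFCP2L1, PRDM14, ZFP42, DPPA2, DPPA5, FGF5 and TBX3. EPCAM read between 0.270 and 0.445 FPKM. POU5F1, DPPA3, DPPA4 and UTF1 were not paired with an identifier in the tables.

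Of 13 tested mesendoderm genes, 0 rose and 0 fell, and 2 above 0 and 1 below 0 had an unadjusted p of at most 0.05, which 7.38% and 6.52% of all tested genes had in these directions. TBXT, which marks primitive streak, read 0.0698, 0.187 and 0.14 against 0.0183, 0.163 and 0.148 FPKM, and EOMES, GSC, MIXL1, SOX17 and FOXA2 were below the filter. GATA6 and CXCR4, which endoderm expresses, read 18.8, 12.5 and 15.7 against 22.8, 18 and 21.2 FPKM and 31.1, 25 and 47.5 against 41.9, 31.9 and 60.6 FPKM, with adjusted p of 0.126 and 0.0591. In the neural ectoderm list, 2 of 18 tested genes rose and 0 fell, with a median of 0.20. These were HES5 and NEUROG1, a proneural factor that was named after its values were seen and rose from 27.7, 24.9 and 60.0 FPKM to 41.1, 40.2 and 88.5 FPKM (log2 fold change 0.59 ± 0.048, adjusted p = 0.0236). The abundant neural genes NES and ZIC1 had adjusted p of 0.623 and 0.241. GATA2 alone of 12 tested trophectoderm genes rose at the adjusted p, while 8 lay above 0 and 4 below. At an unadjusted p of at most 0.05, 5 of the 12 were higher and 1 lower, beside 7.38% and 6.52% of all tested genes. TFAP2C narrowly missed the adjusted p (log2 fold change 0.86, adjusted p = 0.053). KRT8 ranged from 44.3 to 428 FPKM over the untreated lines and from 35.3 to 334 FPKM with Activin A.

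Markers of cells that could remain in the cultures are given beside these results. Of 12 tested fibroblast genes 0 rose and 0 fell, and the summed FPKM of the list was 512 to 596 in untreated libraries and 494 to 585 with Activin A. LUM, POSTN, FAP and COL6A3 were below the filter. COL3A1, a fibrillar collagen, read 0.771, 3.32 and 23.2 FPKM untreated and 6.57, 7.47 and 42.9 FPKM with Activin A and was higher in each line without passing the adjusted p (0.172). COL1A2, DCN and FN1, also genes of the matrix, were higher in each line as well, with log2 fold changes of 0.43, 0.60 and 0.28 (adjusted p of 0.23, 0.257 and 0.26). Other members lay lower in each line, among them TWIST1 with a log2 fold change of -0.45 (adjusted p = 0.2), COL1A1 with -0.23 (adjusted p = 0.313) and the abundant VIM with -0.12 (adjusted p = 0.291). At an unadjusted p of at most 0.05, 4 of the 12 fibroblast genes were higher and 3 lower, beside 7.38% and 6.52% of all tested genes. Of the 12, 8 lay above 0, with a median of 0.10 (0.17 on TPM). COL3A1, COL1A2, DCN, TWIST1 and COL1A1 were named after their values were seen. Of 9 tested pericyte genes 0 rose and 0 fell, and the summed FPKM was 54.3 to 57.6 and 46.3 to 53.7. The part of such cells in the differences above was not tested. In bulk samples fewer cells of a type and less RNA per cell cannot be told apart.

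In the remaining lists 0 or 1 gene passed the adjusted p. For ERK feedback (19 tested), WNT targets (20), cell cycle (24), DNA methylation (8) and the mitochondrial genome (13), 0 genes rose and 0 fell at the adjusted p. At an unadjusted p of at most 0.05, 3, 3, 5, 1 and 0 of them were higher and 7, 2, 3, 1 and 0 lower, beside 7.38% and 6.52% of all tested genes. Their medians were -0.075, 0.02, -0.027, -0.024 and 0.035. Of 25 tested matrix and adhesion genes 1 fell, TIMP3, a metalloproteinase inhibitor named after its values were seen, which went from 66.9, 62.5 and 43 FPKM to 44.5, 42.1 and 25.3 FPKM (log2 fold change -0.63 ± 0.055, adjusted p = 0.0306). Abundant members such as SPARC and ITGB1 had adjusted p of 0.797 and 0.424. In the plot of all lists the immediate-early, BMP and Notch rows lie farthest to the right and the stress, actin and sterol rows farthest to the left. The direction of each is a description of lists chosen with earlier results known, with no test over a list.

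**Figure D4:**
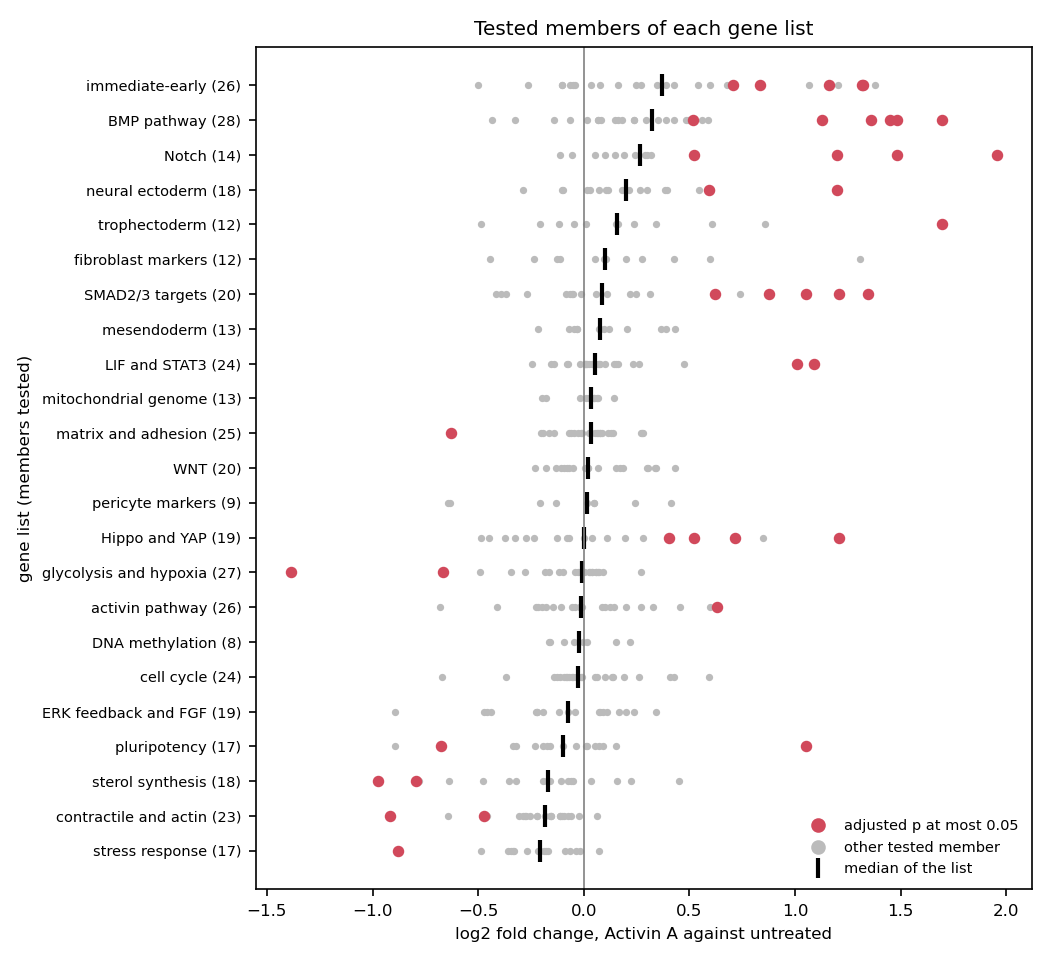
Log2 fold change, Activin A against untreated, of the tested members of each of 23 gene lists, ordered by the list median (black bar), with members at an adjusted p of at most 0.05 in red and the number tested in brackets. Medians run from -0.21 in the stress list to 0.37 in the immediate-early list.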

How the data were processed

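Total RNA of sorted PC-iPS cells with the NANOG tdTomato knock-in was sequenced from oligo(dT) libraries. The authors used Trim Galore for trimming and HISAT2 2.0.4 for alignment to Ssc11.1, and deposited FPKM per gene from StringTie 1.3.3 with Ensembl release 97. The authors ran DESeq2 on featureCounts 1.6.4 counts, which were not used here. FPKM is scaled within each library, so the 2 tables, deposited separately with 24358 identical identifiers each, were joined by Ensembl identifier, and a test across them cannot separate table from treatment. Columns of per-sample values without a sample numbered 0.

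The filter required 0.1 FPKM or more in at least 3 libraries of the 6. The test was limma 3.58.1 in R 4.3.3 on log2(FPKM + 1), two-sided, with a variance trend, the line as a block and Benjamini-Hochberg adjustment over all tested genes. Calls needed a log2 fold change of 1 or more in size with an adjusted p no higher than 0.05. "Rose" and "fell" in the text mean an adjusted p of at most 0.05, and differences are given ± SE on that scale, which understates changes of low genes. The study's thresholds were kept, and limma took the place of a count test. Each n of 3 counts lines of one cell source. With the line as a block, p-values rest on how the Activin A minus untreated difference varied between these lines. The level of each line is taken out.

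Pairing comes from the line numbers in the labels. Over tested genes, deviations from the group mean correlated at 0.502, 0.636 and 0.658 for libraries of the same line and at -0.49 to -0.070 for other pairs. Deviations of a gene sum to 0 within a group, so the values for other pairs are not independent of those for the same line.

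The members and the 23 gene lists were chosen with earlier results of these data known. Genes were named by rule: the 12 largest changes in each direction among called genes with a symbol and no overlap, the genes NANOG, LEFTY2, SMAD7 and ID1, and from each list up to 6 called and up to 3 abundant uncalled members. All other genes, including those below the filter and those without a symbol, were named after their values were seen, whether or not this is said beside them. Symbols of 17451 identifiers came from the tables and of 965 from a gene name table. Coordinates are from RefSeq's Sscrofa11.1 annotation by symbol. On simulated data with 200 genes changed by a log2 fold change of 1.5, the blocked test recovered 180 with 1 false call among 13807 genes. Of 200 changed by 2 it recovered 187 with 0 false calls among 13821. Dropping the line from the model still found 174 at 1.5 (0 wrong calls) and 187 at 2 (1 wrong call). On the deposited libraries the unblocked test called 0 genes. The simulation therefore did not reproduce how the calls rested on the pairing. It held no changes between 1 and 1.5, so recovery in that range is not known. Alternatives were other pseudocounts, filters and scalings, no trend, no block, 9 libraries in the fit, and each line left out. Figures were drawn with matplotlib 3.10.9. Promoter sequences, the WT libraries and the position of the guide were not analysed here, and some list members are not reported here.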

Additional observations from a re-analysis of the deposited data

How the results depend on the processing

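The 68 genes at an adjusted p of at most 0.05, the 27 calls among them, kept their direction under every alternative that could be fitted. LEFTY2 and RPRML did not pass the 1 FPKM filter. Changes of filter, trend or block and the fit of 9 libraries do not alter a log2 fold change, so direction could not change there. Of 57 other genes given alternatives, 11 changed sign when a line was left out. The log2 fold change then ran from -0.22 to 0.48 for JAG1, -0.064 to 0.53 for SKIL, -0.016 to 0.073 for KLF4, -0.23 to 0.011 for LFNG, -0.13 to 0.022 for ACTB, -0.086 to 0.021 for GAPDH, -0.075 to 0.025 for HSPA5, -0.056 to 0.00038 for HSPA8, -0.021 to 0.047 for EPCAM, -0.0014 to 0.90 for CDK2 (ENSSSCG00000037597) and -1.03 to 0.028 for CCND2. EPCAM was also at -6.85e-05 under quantile normalization. Counts of genes higher and lower stayed within 1.5 times of 22 and 5 under pseudocount 0.01, the 1 FPKM filter, median-ratio scaling, TPM, quantile normalization and rescaling without mitochondrial genes. Pseudocount 0.1 gave 28 and 8, no variance trend 19 and 3, and the 9 knock-in libraries with the block 21 and 3. No filter gave 0 and 0, no replicate block gave 0 and 0, and the adjusted p alone 47 and 21. Leaving out a line gave 0 to 18 higher and 0 to 4 lower, with fewer samples in the fit; the cause of the other losses was not tested. Of the 68 genes at an adjusted p of at most 0.05, 0 kept it with no filter, no block or without line 1, 7 without line 2, 18 without line 3, and 33 to 66 under the other settings.

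Most list medians held. With TPM the median was 0.16 for SMAD2/3 targets, 0.061 for LIF and STAT3 genes, 0.17 for fibroblast markers and -0.22 for contractile and actin genes, and quantile normalization gave 0.043 for LIF and STAT3 genes. Leaving out a line gave medians from 0.058 to 0.13 for SMAD2/3 targets, -0.027 to 0.040 for the activin pathway, 0.033 to 0.076 for LIF and STAT3 genes, -0.26 to -0.15 for contractile and actin genes, 0.31 to 0.40 for immediate-early genes, -0.023 to 0.011 for cell cycle genes and -0.23 to -0.18 for stress genes. The activin pathway and cell cycle medians changed sign among these. Depth is unknown, so no counting error can be given, and changes of genes near 0 FPKM, LEFTY2 among them, are the least certain in size.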

Other observations

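Genes outside the lists also passed the adjusted p without reaching the size threshold, and those given here were named after their values were seen. PKDCC, a secreted tyrosine kinase, fell from 15, 45 and 10.6 FPKM in untreated lines 1, 2 and 3 to 7.75, 18.7 and 5.29 FPKM with Activin A (log2 fold change -0.99 ± 0.089, adjusted p = 0.0308). PRTG, protogenin, went from 20.0, 29.5 and 11.6 FPKM to 11.6, 16.1 and 6.12 FPKM (log2 fold change -0.80 ± 0.055, adjusted p = 0.0197) and the related receptor IGDCC3 from 61.6, 54.1 and 83 FPKM to 40.9, 37.9 and 56.9 FPKM (log2 fold change -0.54 ± 0.042, adjusted p = 0.0216). SB431542 libraries read 52, 53 and 27 FPKM for PRTG and 84.6, 66.8 and 137 FPKM for IGDCC3. The growth factor PTN fell from 82.4, 38.2 and 134 FPKM to 62.6, 26 and 93.4 FPKM (log2 fold change -0.48 ± 0.048, adjusted p = 0.0444).

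GAP43 of growth cones rose from 14.6, 11.2 and 23.4 FPKM to 24.3, 18.1 and 33.2 FPKM (log2 fold change 0.61 ± 0.062, adjusted p = 0.0444). The synapse organizer CBLN1 rose from 24.3, 15.2 and 48.6 FPKM to 36.2, 21.6 and 68 FPKM (log2 fold change 0.50 ± 0.046, adjusted p = 0.0314). SYNDIG1 rose from 4.34, 9.82 and 5.52 FPKM to 7.47, 16.9 and 8.51 FPKM (log2 fold change 0.65 ± 0.071, adjusted p = 0.0492). The WNT agonist RSPO2 rose from 1.35, 6.95 and 4.26 FPKM to 2.72, 11.8 and 8.48 FPKM (log2 fold change 0.73 ± 0.079, adjusted p = 0.0492), while SB431542 libraries read 0.436, 14.5 and 3.15 FPKM, with library 2 above every other value. SAG, the arrestin of photoreceptors, had the same unevenness, with 0.231, 21.6 and 0.439 FPKM in SB431542 libraries against 0.676, 3.2 and 1.54 FPKM untreated and 2.62, 7.38 and 3.54 FPKM with Activin A. CDK2 and CCND2 had single libraries far from the rest. CDK2 under ENSSSCG00000037597 read 10.6, 10.7 and 12.3 FPKM untreated, 39.1, 10.8 and 12.2 FPKM with Activin A and 11.2, 24.5 and 12.5 FPKM with SB431542, so Activin A library 1 and SB431542 library 2 stood above the others (adjusted p = 0.532). The other CDK2 identifier of the tables, ENSSSCG00000000373, had a log2 fold change of -0.11 (adjusted p = 0.425). CCND2 read 38.3, 37.7 and 32.8 FPKM untreated, 38.4, 39.2 and 7.07 FPKM with Activin A and 34, 28 and 29.9 FPKM with SB431542, with Activin A library 3 below all others (adjusted p = 0.544).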
